A study of Mus musculus with 24 samples.

Results

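Oxidative phosphorylation is carried out in the inner mitochondrial membrane by 5 protein complexes. Complexes I and II pass electrons from NADH and succinate to ubiquinone, complex III passes them on to cytochrome c, complex IV reduces oxygen with them, and complex V, the ATP synthase, uses the resulting proton gradient to make ATP. Most subunits are encoded in the nucleus and imported, a small core is encoded in mitochondrial DNA, and neurons depend heavily on the pathway to restore ion gradients after firing. The nuclear subunit genes were taken from the deposited count table as the protein-coding rows whose symbols begin with Ndufa, Ndufb, Ndufc, Ndufs, Ndufv, Sdha to Sdhd, Uqcr, Cox4 to Cox8 or Atp5, without the assembly factors named Ndufaf and Sdhaf. Of 90 such rows among 28859 genes, 84 had a mean of at least 1 CPM (counts scaled to a common library total) over the 24 libraries and are described here: 40 of complex I, 4 of complex II, 8 of complex III, 15 of complex IV and 17 of complex V.

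RNA was taken from the lateral septum, which lies in the forebrain, of C57BL/6J males aged 8 to 14 weeks. The start age was given as 8 weeks for every group. One set of mice underwent chronic social defeat stress (CSDS), in which an aggressive CD-1 mouse was met for 10 min a day and then kept behind a barrier until the next day, for 1, 4, 7 or 10 days. The control mice of each day were age-matched and were housed without defeat. Each of the 8 groups held 3 libraries (12 stressed and 12 control). Whether 1 library stands for 1 animal is not stated in the labels, so the p-values below measure the spread between libraries. In bulk tissue, fewer cells of a type and less RNA per cell cannot be told apart.

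Total counts ran from 31182747 to 41205354 per library, and the 84 genes took between 0.901% and 1.16% of them. The 15 lateral septum neuron markers summed to between 3118 and 4664 CPM in every library, whereas the 15 choroid plexus markers ranged from 83.8 to 10364 CPM, and their part in the results was not tested beyond a fit with marker scores as covariates. The spread between libraries of a group was far above counting error, with a chi-square per degree of freedom of at least 10.9 in every pair. No such pair thus differed by counting error alone, which does not show whether the libraries came from different animals. Control replicate 1 of day 10 stood apart, with values of 198 and 224 against the other libraries of its group, where the next highest pair had 54.9. It also had the lowest total, the lowest share of counts in the 13 subunit genes of mitochondrial DNA (3.28%) and the lowest length slope (-0.11). Without it the contrast of days used below called 51 members in controls, with a median of -0.15, and 58 in stressed mice, and no stress comparison called a member. The shares of all genes called by the contrast without this library are not given here. With all libraries they were 31.3% in controls and 40.3% in stressed mice.

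The subunit genes are short. Their deposited lengths ran from 320 to 4137 bases with a median of 768, and 62 of the 84 fell among the shortest 1807 of the 18060 genes tested. Levels between genes are therefore given per length, as the authors' FPKM (fragments per kilobase of length and per fixed number of mapped fragments). A single length per gene underlies those values, and for some genes it exceeds the length of every annotated coding transcript, which lowers their FPKM: Atp5j, a stalk subunit of complex V, has a deposited length of 4137 bases and coding transcripts of 472 to 809 bases.

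By FPKM the genes were among the abundant transcripts of the tissue. The median of the 84 was 90.9 FPKM, against 3.26 FPKM over the 18782 protein-coding genes with a value above 0, and 75 of the 84 lay above the 90th percentile of those genes (30.2 FPKM). The highest was Cox4i1, the ubiquitous subunit 4 isoform of complex IV, at 582 ± 73.2 FPKM (SD, n = 24). It was followed by Atp5b, the catalytic beta subunit of the ATP synthase, at 556 ± 47.8 FPKM, and by Cox6b1, a complex IV subunit on the intermembrane side, at 416 ± 52.7 FPKM. Cox8a at 381 ± 85.5 FPKM and Atp5a1 at 380 ± 25.2 FPKM came next. Over the libraries each gene overlapped with its neighbour in this order, while Cox4i1 (504 to 765 FPKM) did not overlap with Cox6b1 (315 to 500 FPKM), nor Cox4i1 or Atp5b (481 to 644 FPKM) with Atp5a1 (347 to 435 FPKM).

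Complex medians rose from 78.5 FPKM for complex I through 83.0 for complex II, 121 for complex III and 153 for complex V to 209 for complex IV. Within complex I the NADH-oxidising N module (9 genes, median 68.7 FPKM), the quinone-binding Q module (8 genes, 80.7 FPKM) and the proton-pumping P module (23 genes, 79.4 FPKM) lay close together. Its highest gene was Ndufa3, an accessory membrane-arm subunit, at 230 ± 26.1 FPKM. In complex II the flavoprotein Sdha stood at 188 ± 8.78 FPKM and the membrane anchor Sdhd at 63.7 ± 4.81 FPKM. In complex III the hinge protein Uqcrh reached 290 ± 22.8 FPKM, and Uqcrq, a small membrane subunit, was lowest at 55.3 ± 13.3 FPKM. Within the ATP synthase the median was 129 FPKM for the 5 genes of the F1 head, 148 for the 8 of the membrane part and 185 for the 4 of the peripheral stalk.

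**Figure D1:**
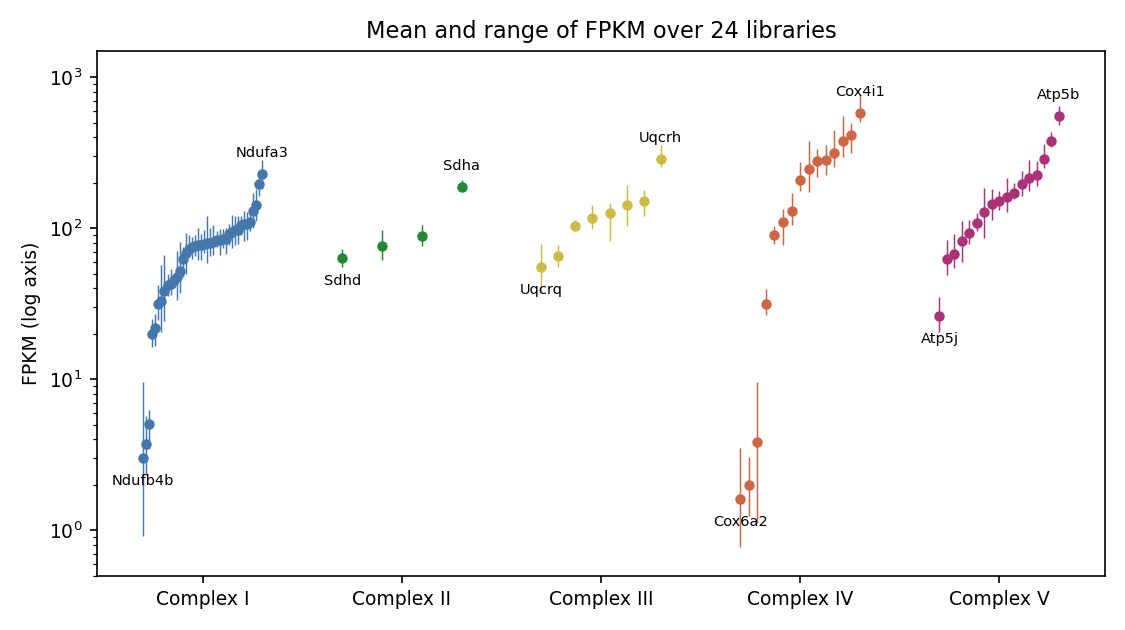
FPKM (log axis) of the 84 nuclear oxidative phosphorylation genes, grouped by complex and ordered by level within each. Points are means and bars the lowest and highest of 24 libraries, with the lowest and highest gene of each complex named. Cox4i1 (582 FPKM) and Atp5b (556 FPKM) were highest, and 6 genes lay under 10 FPKM.

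The complex IV isoforms differed by orders of magnitude. Cox6a1, the form of subunit 6a found in most tissues, had 284 ± 41.9 FPKM, and the heart and muscle form Cox6a2 had 1.6 ± 0.672 FPKM. Cox6b1 at 416 FPKM stood beside the testis form Cox6b2 at 3.87 ± 2.33 FPKM, and Ndufa4, counted here with complex IV, had 313 ± 51.9 FPKM beside 1.98 ± 0.422 FPKM for its hypoxia-responsive paralogue Ndufa4l2. Cox7a2 had 131 ± 18.8 FPKM and Cox7a2l, which takes part in joining complexes III and IV into supercomplexes, had 90.8 ± 7.67 FPKM. The 3 genes for the identical mature c subunit of the ATP synthase ring, Atp5g1, Atp5g2 and Atp5g3, had 82.6, 92.6 and 144 FPKM.

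The 6 candidates under the threshold of 1 CPM were Cox4i2 (0.880 CPM), Cox7a1 (0.853 CPM), Cox8b (0.752 CPM), Ndufb4c (0.405 CPM), Cox7b2 (0.243 CPM) and Cox8c (0.00111 CPM). The members just above it were Cox6a2 (1.06 CPM), Ndufb4b (1.41 CPM) and Ndufs6b (1.77 CPM). Ndufb4b, Ndufs6b and Ndufab1-ps resemble Ndufb4, Ndufs6 and Ndufab1, so their counts may include reads shared with those genes and are uncertain. All 84 members passed the filter on low counts and were tested.

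The promoters are shown because many of the genes moved together between days. Of the 84 genes, 68 had an entry in the RefSeq promoter table (GRCm38.p6), which covers 250 bases before to 50 bases after each start, and letters known as motifs of factors at respiratory genes were counted on both strands. The core motif of nuclear respiratory factor 1 (NRF1), with 1 base left free, was in 17 of the 68 (25.0%), against 5.19% of all 27025 genes in the table. The ETS-family core CCGGAAG, bound by GABP, was also in 17 (25.0%, against 9.93%), the YY1 letters AAGATGGC were in 10 (14.7%, against 3.19%), the cAMP response element TGACGTCA was in 4 (5.88%, against 2.03%) and the estrogen-related receptor letters TCAAGGTCA were in 2 (2.94%, against 0.466%). The Sp1 letters GGGCGG were about as common in the members (41.2%) as in all promoters (38.2%). Such matches are descriptions of the sequence. The genes set beside the members were all those of the table, not matched for level in this tissue or for GC content. Whether other abundant genes carry these motifs as often was not tested. The strict NRF1 form without the free base, every match of which is also a match of the first motif, was in 5 members (7.35%, against 1.07%).

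Stretches of 150 bases that end at the base before the start are given for genes that return below, 5′ to 3′ on the strand of the gene, with motif letters in capitals. Atp5e carries an ETS match and an Sp1 match (chr2:174464102-174464251, minus strand), Ndufb2 a cAMP response element just before the start (chr6:39592415-39592564, plus strand), Sdhd an NRF1 and an ETS match (chr9:50603850-50603999, minus strand), Atp5g2 a strict NRF1 match (chr15:102671048-102671197, minus strand), and Ndufc1 none of the motifs in this stretch (chr3:51408956-51409105, minus strand).
Atp5e: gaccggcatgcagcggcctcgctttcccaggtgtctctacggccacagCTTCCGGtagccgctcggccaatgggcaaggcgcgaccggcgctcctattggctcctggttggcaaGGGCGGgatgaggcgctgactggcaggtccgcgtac
Ndufb2: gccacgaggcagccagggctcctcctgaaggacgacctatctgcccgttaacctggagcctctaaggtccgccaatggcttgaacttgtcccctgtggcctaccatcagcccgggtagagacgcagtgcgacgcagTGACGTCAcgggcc
Sdhd: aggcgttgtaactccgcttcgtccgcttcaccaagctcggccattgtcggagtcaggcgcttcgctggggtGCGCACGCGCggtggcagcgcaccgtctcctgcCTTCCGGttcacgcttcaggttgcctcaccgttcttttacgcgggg
Atp5g2: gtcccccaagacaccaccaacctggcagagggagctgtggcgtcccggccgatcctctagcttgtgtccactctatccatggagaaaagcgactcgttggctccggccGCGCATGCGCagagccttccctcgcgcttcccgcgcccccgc
Ndufc1: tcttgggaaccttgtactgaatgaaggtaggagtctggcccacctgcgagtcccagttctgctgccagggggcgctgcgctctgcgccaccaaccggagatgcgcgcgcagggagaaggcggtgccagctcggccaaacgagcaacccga

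The first question of the design was whether defeat stress changed the genes on a given day. No member passed an adjusted p of 0.05 (edgeR quasi-likelihood test, Benjamini-Hochberg over 18060 genes) on day 1, 4, 7 or 10, in the average over the days, or in the F test of whether the response differed between days. Few genes of any kind did: the shares over all genes tested were 0.00554% on day 1, 0.111% on day 4, 0.00554% on day 7, 0.166% on day 10, 0.116% for the average and 0.0221% for the F test. At an unadjusted p under 0.05 there were 2 members on day 1, 29 on day 4, 1 on day 7, 2 on day 10 and 16 in the average. The shares of all genes at that threshold were 7.88%, 8.33%, 4.28%, 12.8% and 6.47%. DESeq2 called 1 member, Atp5e on day 4, and none in the other daily comparisons or the average. The share of all genes called by DESeq2 is not given here, so this call has no background beside it.

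With TMM scaling alone, the members lay below controls most often on day 4. Their median log2 fold change (CSDS minus control) was -0.14, against 0.0015 over all genes tested, and 78 of 84 were below 0, with a median standard error of 0.078 for a single gene. In 57 of the 84 all 3 stressed libraries lay below all 3 controls, which held for 8.41% of all genes, and in 1 they lay above (7.16% of all genes). The genes share their libraries, so these counts are not of independent events. Every complex was on the same side, with medians of -0.14 for complex I (36 of 40 below 0), -0.16 for complex II (4 of 4), -0.092 for complex III (8 of 8), -0.14 for complex IV (14 of 15) and -0.13 for complex V (16 of 17).

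Transcript length moved with this difference. Across all genes the stressed minus control value on day 4 rose with length (Spearman rho of 0.19 over 18060 genes, which are not independent), and the shortest 1807 genes had a median of -0.068. The slope of a library's log2 CPM deviation on log2 length ran from 0.020 to 0.055 in day 4 controls and from 0.054 to 0.079 in day 4 stressed libraries. With each library's length trend removed, the members' median was -0.11 against -0.031 over all genes, 78 were below 0, and 39 had all stressed libraries below all controls (9.68% of all genes). With trends for length and for the GC content of transcripts removed together, the median was -0.078 against -0.016 (75 below 0). On day 7 the same fit gave -0.082 and 76 below 0. By the count below 0, day 4 did not stand out in this fit. In complex I, 34 of 40 genes lay below 0 on day 1, 33 on day 4 and 33 on day 7. On day 4, 23 members had all stressed libraries below all controls (7.93% of all genes), against 5 on day 1 (6.58%) and 10 on day 7 (5.67%). With length or with both trends removed, no member was called on day 4, where 0.138% and 0.116% of all genes were.

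Other gene lists lay below 0 on day 4 as well, none with a called gene. The medians were -0.067 for 77 cytosolic ribosomal proteins (66 below 0), -0.054 for 78 mitochondrial ribosomal proteins (55 below 0), -0.050 for 49 assembly factors of the complexes (34 below 0) and -0.049 for 18 TCA cycle enzymes (15 below 0). The 13 subunits encoded in mitochondrial DNA had a median of 0.012 (6 below 0). Lateral septum neuron markers had a median of -0.064 (14 of 15 below 0), choroid plexus markers of -1.28 (15 of 15), with summed levels of 128 to 6835 CPM in controls and 118 to 3775 CPM in stressed mice, and cortex and hippocampus neuron markers of 0.37 (1 of 10). Blood cell markers (7 of 9 tested, 5 with a mean under 1 CPM) were all above 0 on days 4, 7 and 10. They summed to 0.632 to 5.06 CPM in the day 4 controls and 7.21 to 20.2 CPM in the stressed mice, to 0.613 to 4.50 and 68.9 to 97.6 CPM on day 7, both without overlap, and to 10.1 to 29.7 and 2.33 to 147 CPM on day 10. Hbb-bt, a beta globin, was the only gene of these lists called in a stress comparison, in the average over days (2.98, SE 0.57, edgeR adjusted p = 0.0374). The part of blood in the members' values was not tested. With choroid plexus and cortex marker scores as covariates, 1 member was called on day 4. The share of all genes called in that fit is not given here.

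Atp5e, the epsilon subunit of the F1 head, had the smallest p on day 4. Its CPM were 41.7, 45.7 and 48.2 in the day 4 controls and 37.2, 36.6 and 35.9 in the stressed mice. The groups did not overlap, and the log2 fold change was -0.31 (SE 0.075, edgeR adjusted p = 0.165). The adjusted p was 0.0447 by DESeq2 and 0.0482 in edgeR with choroid plexus and cortex marker scores as covariates. With length and GC trends removed the value was -0.22 and the adjusted p 0.539.

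Sdhd, the complex II anchor, had 89.4, 81.3 and 82.3 CPM in the day 4 controls and 71.8, 75.6 and 72.8 CPM in the stressed mice, again without overlap (log2 fold change -0.20, SE 0.058, edgeR adjusted p = 0.276). Atp5l, the g subunit of the membrane part of the ATP synthase, had 138, 137 and 141 CPM in controls and 111, 115 and 117 CPM in stressed mice (log2 fold change -0.28, SE 0.082, edgeR adjusted p = 0.288). The groups again did not overlap. The stressed libraries of day 4 lay within the range of the controls of day 1 and day 7 together, which was 106 to 127 CPM for Atp5l. Among the abundant genes, Cox4i1 differed by -0.15 (SE 0.063) and Atp5b by -0.089 (SE 0.059). The largest differences upward were in low genes, Ndufa4l2 at 0.36 (SE 0.19) and Ndufb4b at 0.34 (SE 0.28), neither past the test.

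On day 1 the members' median was -0.047 (69 of 84 below 0; all genes -0.0074), and 3 genes had all stressed libraries below all controls (6.26% of all genes) and 0 above them (5.3%). The smallest p-values were those of Cox6a2, of Ndufb9, an accessory subunit of the complex I membrane arm (-0.18, SE 0.075), and of Ndufa5, of the Q module (-0.20, SE 0.096), with edgeR adjusted p of 0.584, 0.619 and 0.633. On day 7 the median was -0.023 (54 below 0; all genes 0.0028), with 4 genes below (4.88%) and 3 above (4.95%) without overlap. The smallest p-values belonged to Ndufb4b (0.62), Ndufa8, an accessory subunit of the membrane arm (-0.12), and Atp5k, the e subunit of the ATP synthase (-0.18), each with an adjusted p of 0.999. Stressed replicate 2 was the lowest library of day 7, and without it the count below 0 on that day was 28. With the length trend removed, 73 members were below 0 on day 7, the median was -0.089 against -0.017 over all genes, and 8 genes had all stressed libraries below all controls (5.24% of all genes). On day 1 the same fit gave 74 below 0 and a median of -0.067 against -0.021.

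On day 10 the median was -0.0028 (43 below 0; all genes 0.018), with 1 gene below (7.17%) and 2 above (8.44%) without overlap. This day depended on the treatment of length as well: with the length trend removed, 16 of 84 were below 0, the median was 0.089 against 0.057 over all genes, and 18 genes had all stressed libraries above all controls (13.0% of all genes). It also depended on single libraries, since the count below 0 was 18 without control replicate 1 and the median was -0.075 without control replicate 3. Atp5e (-0.16, edgeR adjusted p = 0.383) and Ndufb2, an accessory subunit of the complex I membrane arm (-0.20, adjusted p = 0.447), lay lower in stressed mice with TMM scaling alone. With the length trend removed the values were -0.0028 for Atp5e and -0.12 for Ndufb2. With length and GC trends removed they were -0.011 and -0.10.

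Averaged over the 4 days, 77 of 84 members were below 0 with a median of -0.053 (all genes 0.0019), and with the length trend removed 77 were again below 0 with a median of -0.048. The smallest p-values were those of Atp5e (-0.13, edgeR adjusted p = 0.357), Ndufc1, a small membrane-arm subunit (-0.15, adjusted p = 0.357), and Atp5l (-0.12, adjusted p = 0.542).

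**Figure D2:**
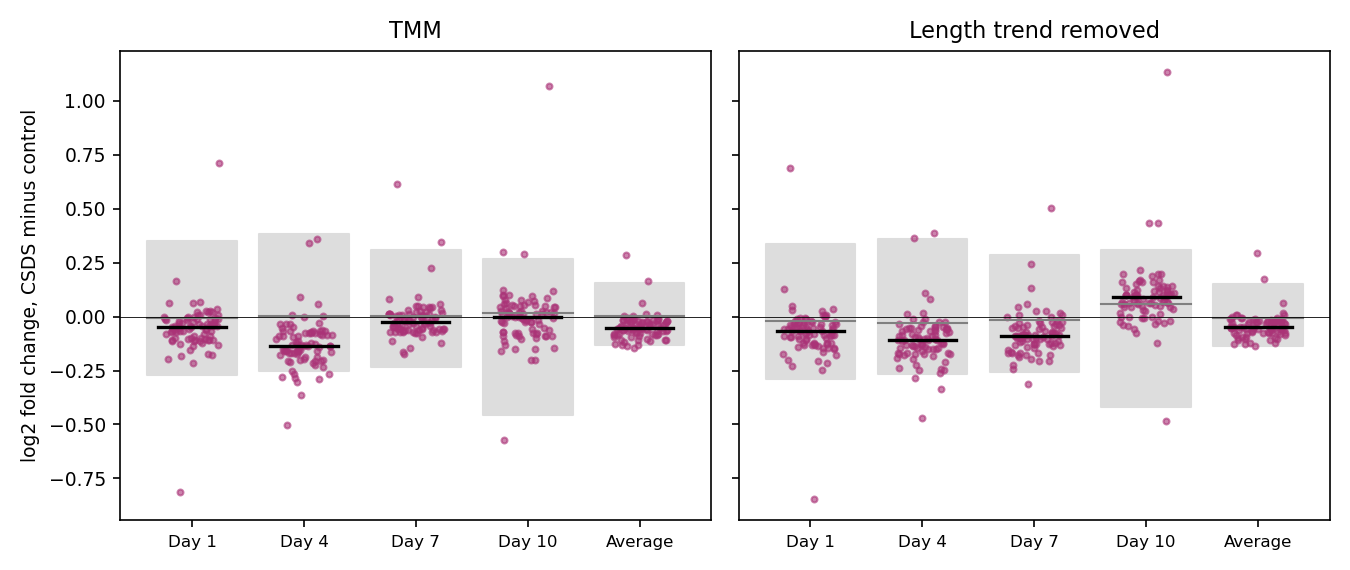
Log2 fold change of CSDS minus control for each of the 84 genes (points), on each day and in the average over days, with TMM scaling (left) and with the length trend of each library removed (right). Black lines are medians of the 84 genes, grey boxes span the 10th to 90th percentile and grey lines the median of all 18060 genes tested. The members' median was -0.14 on day 4, and on day 10 it was -0.0028 with TMM and 0.089 with the length trend removed.

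Cox6a2, the muscle-type isoform, was the member whose stress difference varied most between days. On day 1 it had 1.22, 2.30 and 1.5 CPM in controls and 1.1, 0.981 and 0.776 CPM in stressed mice, a log2 fold change of -0.81. On day 10 it had 0.542, 0.700 and 0.568 CPM in controls and 0.986, 1.97 and 0.852 CPM in stressed mice, a log2 fold change of 1.07 (edgeR adjusted p = 0.206). The groups did not overlap on either day and pointed in opposite directions, and the F test over the 4 days gave an adjusted p of 0.239. The controls themselves differed between days for this gene (edgeR F test, adjusted p = 0.00244), where 40.7% of all genes were called. Among stressed mice it was not called (edgeR F test, adjusted p = 0.175). Without stressed replicate 2 the day 10 value was 0.58. Markers of parvalbumin interneurons and striated muscle (8 of 10 tested, 4 with a mean under 1 CPM) summed to 252 to 341 CPM in the day 1 controls and 302 to 311 CPM in the day 1 stressed mice, and to 230 to 314 and 256 to 292 CPM on day 10. Their part in the result was not tested.

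The second question was whether the genes differed between days within the controls and within the stressed mice. In the F tests over the 4 days, 69 of 84 members were called among controls, where 40.7% of all genes were, and 69 among stressed mice, where 47.9% of all genes were (edgeR, adjusted p under 0.05). With the length trend removed the member counts were 47 and 69, against 35.5% and 48.4% of all genes. Day, age and any batch of the libraries cannot be told apart in these differences, since every library of a day shares all of them.

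In controls the lowest group mean fell on day 7 for 58 of the 84 genes and the highest on day 1 for 45 and on day 10 for 32. In stressed mice the lowest mean was on day 4 for 38 genes and on day 7 for 23, and the highest on day 10 for 44 and on day 1 for 35. The mean log2 CPM deviation over the 84 genes was between -0.23 and -0.019 in the 12 libraries of days 4 and 7 and between -0.032 and 0.23 in those of days 1 and 10. A contrast of days 4 and 7 against days 1 and 10 was added after these values had been seen, so its results describe the pattern that led to it.

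In that contrast 54 members were called in controls, 51 lower and 3 higher on days 4 and 7 (31.3% of all genes were called, 16.7% lower and 14.6% higher). In stressed mice 57 were called, 56 lower and 1 higher (40.3% of all genes, 21.7% lower and 18.6% higher). The medians of the 84 were -0.19 in controls and -0.25 in stressed mice, against -0.025 and -0.012 over all genes, and 49 members were called lower in both. In controls 23 members had all 6 libraries of days 4 and 7 below all 6 of days 1 and 10 (4.55% of all genes), in stressed mice 34 did (8.69%), and in 12 it held for all 12 libraries against all 12 (2.27%). The reverse held for 0 members, against 4.39% of all genes in controls and 6.92% in stressed mice. The difference between the stressed and the control contrast was called for no member by edgeR (0% of all genes), and 2 had an unadjusted p under 0.05. No member was called between day 7 and day 4 in either condition (0.0664% of all genes in controls, 0% in stressed mice). In that comparison 6 and 3 members had an unadjusted p under 0.05. Shares of all genes at the unadjusted threshold are not given for these comparisons.

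**Figure D3:**
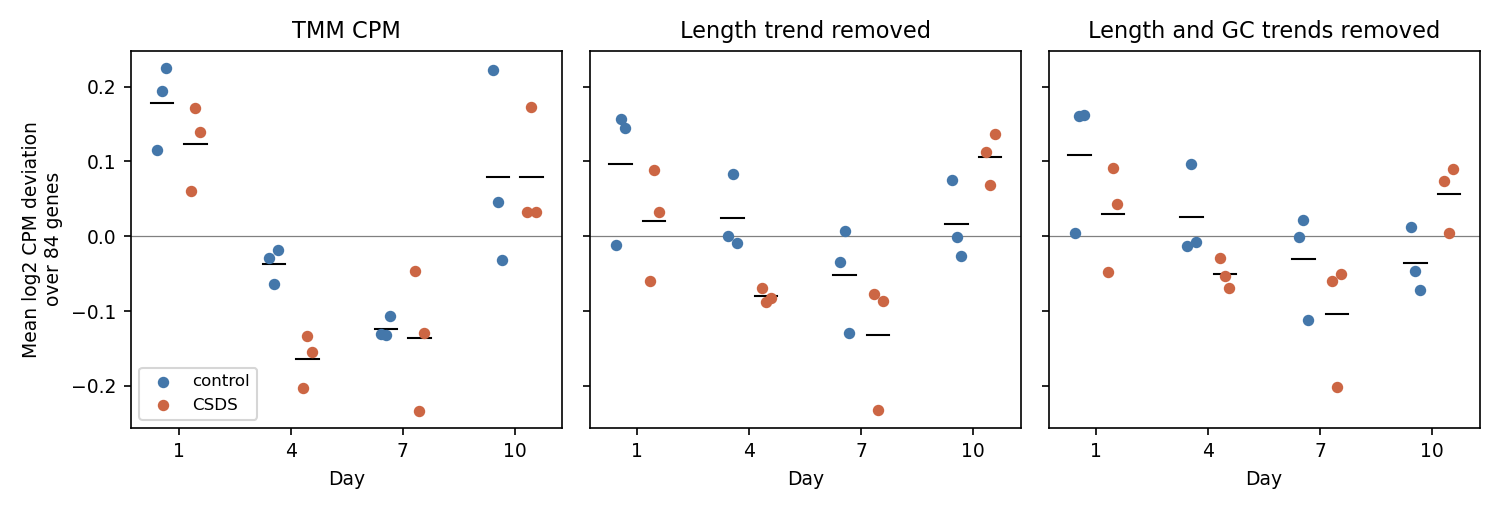
Mean log2 CPM deviation of the 84 genes in each library, by day and condition, from TMM-scaled CPM (left), with each library's length trend removed (middle) and with length and GC trends removed (right). Points are libraries and lines the means of 3. The mean difference between days 4 and 7 and days 1 and 10 was -0.23, -0.12 and -0.080 in the 3 panels.

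Properties of the libraries moved with the same split of the days. The slope on log2 length was 0.010 to 0.079 in the libraries of days 4 and 7 and -0.11 to -0.014 in those of days 1 and 10, and the slope per 10 percentage points of GC was -0.23 to -0.085 and 0.064 to 0.26, both without overlap. Microglia markers (10 tested) split the same way, with a mean log2 deviation of -0.24 to -0.044 on days 4 and 7 and -0.044 to 0.22 on days 1 and 10. Their mean difference of -0.27 stands beside -0.23 for the members, and 9 of the 10 were called lower in controls and 7 in stressed mice. Astrocyte markers differed by -0.11 with overlap between the days. The part of these markers in the result was not tested. The contrast itself followed GC content across all genes (Spearman rho of -0.61 in controls and -0.66 in stressed mice over 16616 genes) and across the 83 members with a GC value (-0.38 and -0.48). Genes share libraries, so these are descriptions and carry no p. With the length trend removed, 30 members were called in controls (20 lower, 10 higher; 24.0% of all genes) and 51 in stressed mice (46 lower, 5 higher; 36.7% of all genes). With both trends removed, 21 were called in controls (13 lower, 8 higher; 8.83% of all genes) and 29 in stressed mice (27 lower, 2 higher; 17.1% of all genes), and the medians were -0.0070 and -0.097.

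The 13 subunits encoded in mitochondrial DNA lay on the other side. Their median in the contrast was 0.53 in controls (7 called, all higher) and 0.62 in stressed mice (9 called, all higher), and with length and GC trends removed the medians were 0.74 and 0.72. In controls their mean log2 deviation was 0.16 to 0.32 on days 4 and 7. It was -0.13, 0.20 and 0.33 on day 1 and -0.76, -0.56 and -0.41 on day 10. By this score the day 1 controls overlapped with days 4 and 7, and only the day 10 controls stood wholly below. Together these 13 genes took 6.11% to 7.66% of the counts on days 4 and 7 and 3.28% to 4.92% on days 1 and 10. Related nuclear lists were on the side of the members: of 49 tested assembly factors of the complexes, 17 were called lower and 2 higher in controls, of 78 mitochondrial ribosomal proteins 36 lower and 3 higher, and of 77 cytosolic ribosomal proteins 45 lower and 1 higher. Of 18 enzymes of the TCA cycle 3 were lower and 1 higher. Over all genes 16.7% were called lower in controls and 14.6% higher, so the lower calls of the TCA cycle were near the share of all genes. With both trends removed the counts of these nuclear lists, in the same order, were 3 and 0, 6 and 1, 10 and 14, and 0 and 1. In that fit 4.43% of all genes were called lower in controls and 4.4% higher.

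**Figure D4:**
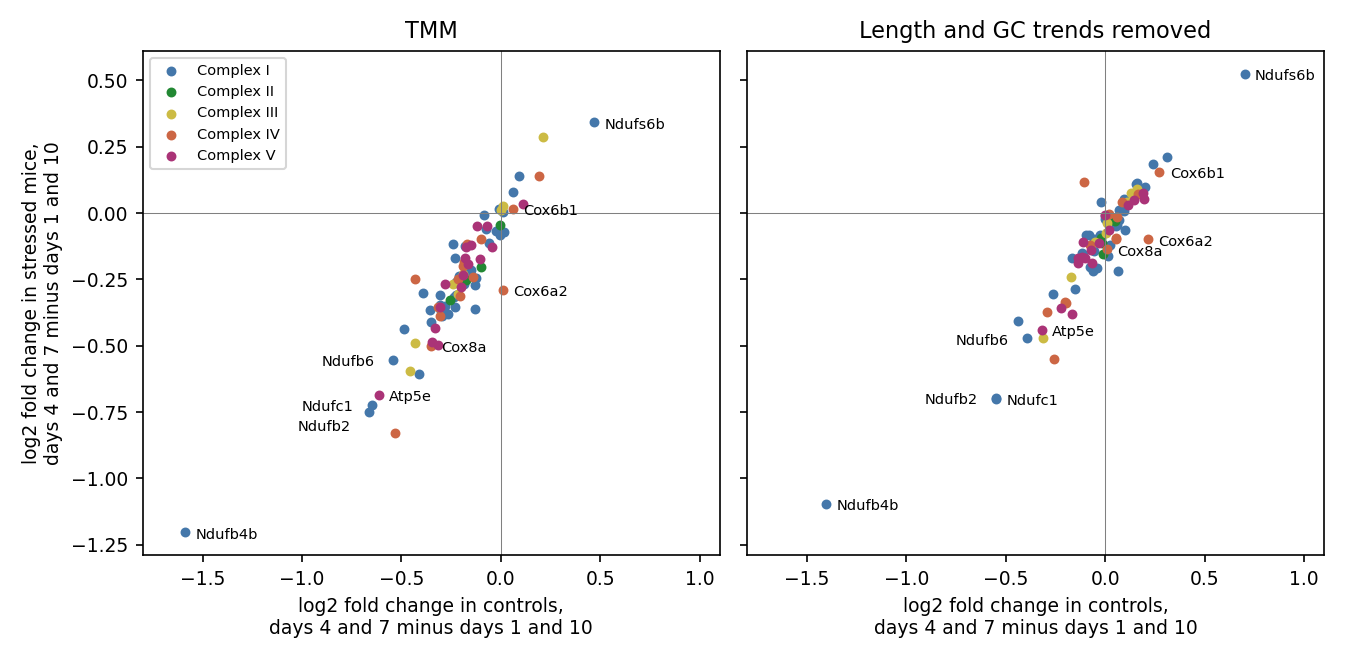
Log2 fold change of days 4 and 7 minus days 1 and 10 in stressed mice (vertical axis) against controls (horizontal axis) for the 84 genes, coloured by complex, with TMM scaling (left) and with length and GC trends removed (right). Ndufb4b, Ndufb2, Ndufc1, Ndufb6 and Atp5e stayed low in both conditions in both panels, and Cox8a moved to 0.010 in controls with both trends removed.

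In complex I, Ndufc1 and Ndufb2 were highest on day 1. Ndufc1 had 41.3, 42.7 and 45.9 CPM in the day 1 controls, 21.3, 20.8 and 22.8 on day 4, 21.1, 20.3 and 21.0 on day 7, and 28.7, 24.6 and 23.1 on day 10. Day 1 stood well above the other 3 days, and day 10 lay slightly above days 4 and 7. The stressed mice repeated this, with 38.3 to 42.4 CPM on day 1, 16.5 to 20.8 on days 4 and 7 and 23.3 to 24.1 on day 10. The contrast of days 4 and 7 against days 1 and 10 was -0.65 in controls (SE 0.060, edgeR adjusted p = 1.57e-07) and -0.72 in stressed mice (SE 0.060, adjusted p = 1.58e-08), and day 10 minus day 1 was -0.77 and -0.76. With both trends removed the contrast was -0.55 and -0.70, called in both.

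Ndufb2 had 41.8, 41.9 and 47.9 CPM in the day 1 controls, 17.4 to 25.1 on days 4 and 7 and 24.9 to 31.4 on day 10 (contrast -0.67, SE 0.079, edgeR adjusted p = 2.73e-06; in stressed mice -0.75, adjusted p = 3.08e-07). Ndufb6, a further accessory subunit of the membrane arm, had contrasts of -0.54 and -0.55. The low paralogue Ndufb4b had 2.79 to 4.45 CPM in the day 1 controls and 0.436 to 0.813 CPM in all later controls, the largest fall of any member (contrast -1.59 in controls and -1.20 in stressed mice), with the uncertainty of shared reads named above and no GC value of its own. Ndufs7, the iron-sulphur subunit next to the quinone site, had -0.41 and -0.61, and Ndufa10, a membrane-arm subunit, had -0.15 and -0.22. With both trends removed, Ndufs7 was not called in controls (-0.062) and Ndufa10 in neither condition (0.067 and 0.0099).

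Other complex I genes moved differently. Ndufs6b, which like Uqcrb below was named after its values were seen, was higher on days 4 and 7 in controls (0.47, SE 0.15, edgeR adjusted p = 0.0198), with 0.34 in stressed mice (adjusted p = 0.0694), and had 0.70 and 0.53 with both trends removed, called in both. Its reads may be shared with Ndufs6. Ndufv3, a small subunit of the N module, had contrasts of -0.062 and -0.11 but rose between day 1 and day 10 by 0.32 in controls (edgeR adjusted p = 0.000527) and 0.41 in stressed mice (adjusted p = 3.42e-05).

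In complex II, Sdhd had contrasts of -0.10 in controls (edgeR adjusted p = 0.0645) and -0.20 in stressed mice (adjusted p = 0.000452). In complex III, Uqcrq had contrasts of -0.45 in controls and -0.60 in stressed mice and was called in both conditions with both trends removed (-0.31 and -0.47). Uqcrb, another small subunit of that complex, was the only member called higher in both conditions without trend removal (0.21 and 0.29, edgeR adjusted p = 0.0454 and 0.00644). On day 10 it had 73.1, 50.2 and 48.4 CPM in controls and 46.0, 56.0 and 52.4 CPM in stressed mice, so that 5 of the 6 libraries lay below all those of the other days and control replicate 1 did not. With both trends removed it was not called (0.13 and 0.075).

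In complex IV, Cox4i1 and Cox6b1 were highest on day 10. Cox4i1 had 400, 426 and 420 CPM in the day 1 controls and 549, 538 and 530 on day 10, and 401 to 458 in the controls of days 4 and 7. Only the day 10 libraries stood apart, and day 10 minus day 1 was 0.38 in controls (SE 0.063, edgeR adjusted p = 0.000187) and 0.38 in stressed mice (adjusted p = 0.000147). Cox6b1 rose likewise, from 154 to 175 CPM in the day 1 controls to 216 to 247 CPM on day 10, with days 4 and 7 between (195 to 213 CPM). Its day 10 minus day 1 value was 0.48 in controls and 0.57 in stressed mice, and with both trends removed 0.38 and 0.65, called in each. Cox8a, the ubiquitous subunit 8, and Ndufa4 moved the other way between these days, by -0.49 and -0.42 in controls and by -0.42 and -0.34 in stressed mice. The testis form Cox6b2 varied widely within groups, as in the day 4 controls with 3.59, 0.687 and 1.80 CPM, and ran from 0.684 to 6.10 CPM over the 24 libraries.

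The ATP synthase was led by Atp5e, which was high on both outer days. Its controls had 70.5, 76.4 and 73.7 CPM on day 1, 41.7, 45.7 and 48.2 on day 4, 41.3, 42.6 and 42.7 on day 7 and 65.7, 58.6 and 57.7 on day 10. The libraries of days 4 and 7 lay below all of days 1 and 10, as they did in stressed mice (35.9 to 43.9 against 49.4 to 76.0 CPM). The contrast was -0.61 in controls (SE 0.052, edgeR adjusted p = 4.99e-08) and -0.69 in stressed mice (SE 0.053, adjusted p = 6.14e-09), and -0.32 and -0.44 with both trends removed, called in both. Atp5d, the delta subunit of the same head, had -0.35 and -0.49, and with both trends removed -0.029 and -0.11, called in neither. Atp5b had -0.19 and -0.23. Of the c-ring genes Atp5g1 had -0.32 and -0.50, Atp5g2 -0.20 and -0.28 and Atp5g3 -0.33 and -0.43, and of these only Atp5g3 was called in both conditions with both trends removed (-0.22 and -0.36).

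**Figure D5:**
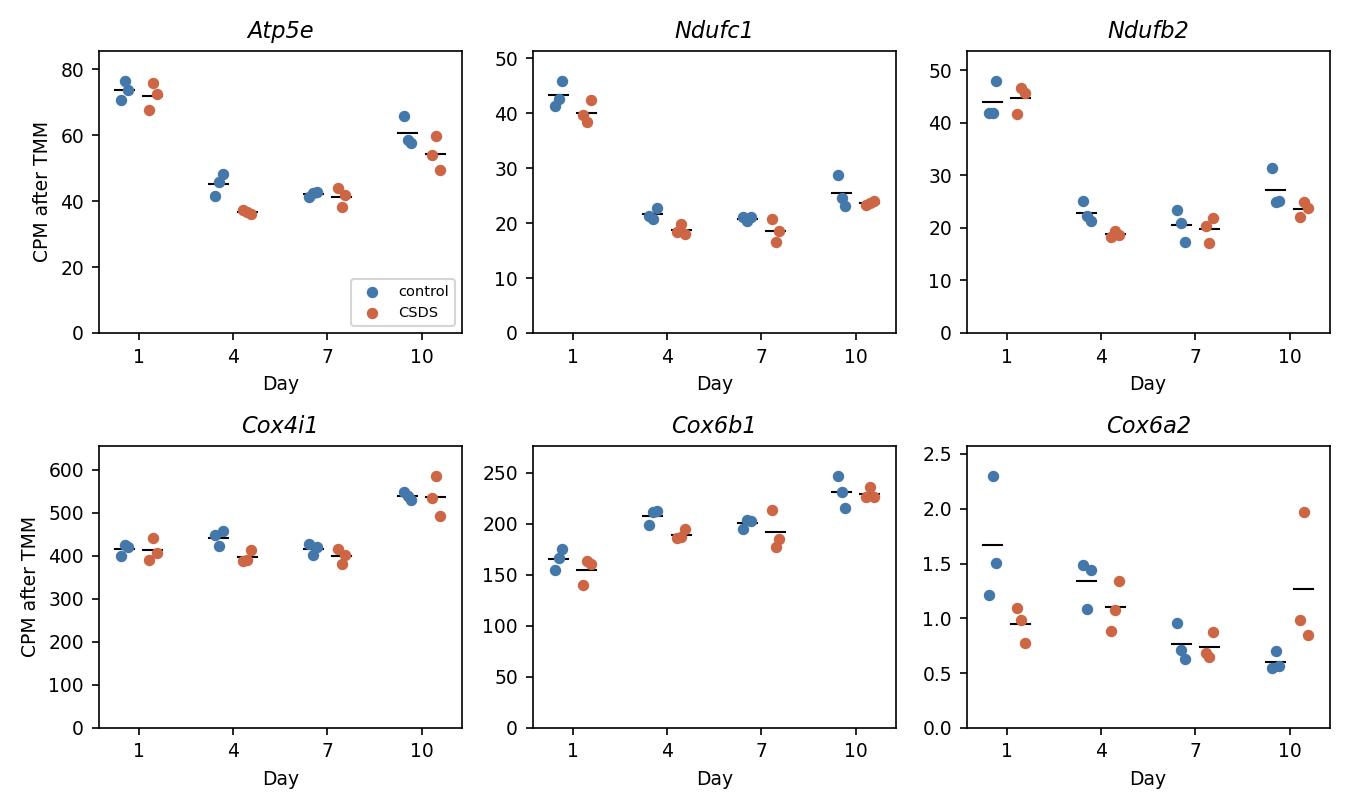
CPM after TMM scaling of 6 genes in each of the 24 libraries, by day and condition, with lines at the means of 3. Atp5e was high on days 1 and 10, Ndufc1 and Ndufb2 were highest on day 1, Cox4i1 and Cox6b1 were highest on day 10, and Cox6a2 stayed at or under 2.30 CPM.

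Day 10 minus day 1 was called for 38 members in controls (27 lower, 11 higher; 27.6% of all genes, 17.8% lower and 9.86% higher) and for 39 in stressed mice (24 lower, 15 higher; 27.4% of all genes, 16.2% lower and 11.2% higher). Complex IV held 7 of the lower and 2 of the higher calls in controls, and complex II, whose subunits are all nuclear, held none lower and 1 higher. With TMM scaling alone the median over complex I was -0.031 in controls and 0.036 in stressed mice. With the length trend removed it was -0.018 in controls and 0.14 in stressed mice. The other complexes shifted the same way. Their medians were 0.13 and 0.25 for complex II, -0.031 and 0.12 for complex III, -0.092 and 0.064 for complex IV and -0.029 and 0.14 for complex V. Medians of all genes are not given for this comparison. In that fit the stressed minus control median over all genes was also higher on day 10 than on day 1, as given above. The difference between the conditions in this comparison was not tested by itself.

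The members with and without each promoter motif were set side by side. In the contrast of days 4 and 7 against days 1 and 10, the control medians were -0.18 for the 17 genes with the NRF1 core and -0.21 for the 51 without, -0.23 and -0.20 for ETS, -0.22 and -0.20 for YY1, -0.18 and -0.23 for Sp1, -0.24 and -0.20 for the cAMP response element and -0.22 and -0.21 for the estrogen-related receptor letters. In stressed mice they were -0.20 and -0.27 for the NRF1 core, -0.27 and -0.26 for ETS, -0.25 and -0.27 for YY1, -0.23 and -0.31 for Sp1, -0.29 and -0.26 for the cAMP response element and -0.32 and -0.26 for the estrogen-related receptor letters. On day 4 the medians of stressed minus control were -0.13 with and -0.14 without the NRF1 core. These are descriptions of 68 genes with no test.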

How the data were processed

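RNA of the lateral septum was sequenced as poly(A)-selected directional libraries in 24 samples (3 for each of 8 groups). The deposited gene counts were made by the authors with fastp, HISAT2 and HTSeq on GRCm39, per the submitters' processing notes; versions and the strand setting are not given in the sources used here. The authors' deposited FPKM divide those counts by 1 length per gene and by the column total. The length implied by the 2 tables was the same in every library, within 0.001, for all 27139 genes for which it could be computed.

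Counts were tested with edgeR 4.0.16 (limma 3.58.1, R 4.3.3): TMM scaling, filterByExpr, a quasi-likelihood fit of 8 group means over 24 libraries, and Benjamini-Hochberg adjustment over 18060 genes at 0.05. CPM are TMM-scaled, except in the choice of members. The fit was tested on simulated counts. Totals per library had a median of 38196571. Counting error is small at this depth, and precision is limited by 3 libraries per group.

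Length trends (natural spline, 4 df, of each library's log2 CPM deviation) entered as offsets. Transcript GC and annotated lengths were taken from GENCODE M21. Other alternatives were RLE and total scaling, other low-count filters, DESeq2 1.42.0, a replicate block, marker covariates, fits of 1 day and leaving out each library. The contrast of days 4 and 7 with days 1 and 10, the other day pairs, and the GENCODE length and GC trends were chosen after seeing the data.

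Genes named were at most 12 called members by smallest p, the 3 smallest p per stress comparison, the highest and lowest FPKM per complex, listed isoforms, and the 5 most variable members. The members and the lists were chosen with earlier results of these data known.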

Additional observations from a re-analysis of the deposited data

Results flagged for a closer look

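Cox6a2 was singled out because its stressed and control libraries did not overlap on day 1 or on day 10 and pointed in opposite directions, with log2 fold changes of -0.81 on day 1 and 1.07 on day 10. The difference between these 2 days was not tested by itself. The F test over the 4 days gave an edgeR adjusted p of 0.239. Between days, Cox6a2 was called among controls (edgeR F test, adjusted p = 0.00244) and not among stressed mice (edgeR F test, adjusted p = 0.175). Its level is about 1 CPM, and the day 10 value was 0.58 without stressed replicate 2.

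Ndufv3, a small subunit of complex I, was singled out in the same way for day 4 (-0.19) and day 7 (0.08). Day 4 controls had 69.8, 67.2 and 71.4 CPM and stressed mice 57.7, 63.9 and 61.3 CPM, and day 7 controls had 64.6, 63.5 and 64.0 CPM and stressed mice 71.2, 65.1 and 66.5 CPM. The difference between these 2 days was not tested by itself, and the F test over the 4 days gave an edgeR adjusted p of 0.387.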

How the results depend on the processing

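No stress comparison called a member under any alternative except day 4, where DESeq2 and the marker covariates each called 1 (Atp5e). Leaving out each library gave 0 called in every stress comparison, 28 to 73 members below 0 on day 7, 18 to 64 below 0 on day 10 and day 10 medians of -0.075 to 0.063. With the marker covariates 34 members were below 0 on day 7. On day 10 the count below 0 was 16 with the length trend removed, 16 with the replicate block added, 23 with GENCODE lengths and 14 with length and GC, with medians of 0.089, 0.089 and 0.090 for the first, second and last of these. Between days, the control F test called 41 members with the length trend removed and the replicate block, and 44 with length and GC removed. Shares of all genes in these fits are not given here, and with length alone removed the share was 35.5%. The control contrast of days 4 and 7 with days 1 and 10 called 30 with length removed (24.0% of all genes) and 28 with the block added (share not given here). It called 21 with length and GC (8.83% of all genes), where 44 were below 0. Its medians were -0.046, -0.045, -0.084 with GENCODE lengths and -0.007 with length and GC. In stressed mice 29 were called with length and GC removed (17.1% of all genes), and the medians in the same order were -0.161, -0.159, -0.166 and -0.097. In this contrast signs turned for Cox8a in controls (0.010), Ndufa10 in controls (0.067) and stressed mice (0.010) with length and GC removed, and for Ndufv3 in controls (0.056 with length, 0.056 with the block added, 0.054 with GENCODE lengths, 0.155 with length and GC) and stressed mice (0.110 with length and GC). The cause was not tested.

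Same-numbered control and stressed libraries had correlations of -0.681 to 0.347, so the numbers were not taken to pair them. With the replicate block 0 members were called in each stress comparison, the day 4 median was -0.135, and the contrast called 51 in controls and 57 in stressed mice. Shares of all genes with the block are not given here, and without it they were 31.3% and 40.3% for the contrast.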
